A study of Mus musculus with 6 samples.

Results

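The genes of cholesterol synthesis and of its main regulator, the transcription factor SREBP2, were examined as a set of 26, chosen by symbol among the 50599 genes of the deposited table. Each of the 26 symbols matched exactly 1 row, and all 26 were among the 11828 genes with enough reads to test. RNA was sequenced from RAW 264.7 cells, an established mouse macrophage line, that had been infected by retrovirus with the ∆Raf-1:ER construct, in which 4-hydroxytamoxifen (4-OHT) switches on the oncoprotein Raf-1, and kept under hygromycin B selection (70 µg/mL) over 7 days. The 3 control samples received ethanol vehicle and the 3 treated samples received 100 nM 4-OHT, and all were collected on day 3, when the series' design text calls the treated cells senescent. Both groups carried the construct and both were without serum, the usual outside source of cholesterol for cultured cells, for the last 24 hours. The labels do not say whether the infected cells were a clone or a pool. Effects of 4-OHT itself and of the oncoprotein cannot be told apart, because no construct-free cells treated with the drug are among the samples. In bulk samples, a change in the share of cells that express a gene and in the RNA per cell cannot be told apart either.

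Cells make cholesterol from acetyl-CoA through mevalonate, isoprenoid diphosphates, squalene and lanosterol. When the membrane of the endoplasmic reticulum is low in sterol, the escort protein SCAP carries SREBP2 to the Golgi, where a pair of proteases release its active fragment, which raises the genes of the pathway. When sterol is plentiful, INSIG proteins hold SCAP in the endoplasmic reticulum and the genes are turned down, and macrophages use this loop to balance what they make against the cholesterol they take up.

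The pathway did not move as a block. Of the 26 genes, 9 were higher with 4-OHT, 12 were lower and 5 did not pass the test, in a limma fit over all tested genes with an adjusted p under 0.05. Over all tested genes 33.0% were higher and 32.5% were lower by the same rule, against 34.6% and 46.2% of the 26. Called in either direction were 80.8% of the 26 and 65.5% of all tested genes (67.4% of these with the replicate letter added to the fit). The changes were modest. A called change of at least 0.5 on the log2 scale was found in 10 of the 26, 38.5% against 35.8% of all tested genes, and none of the 26 reached a log2 change of 1, which 13.0% of all tested genes did. The groups did not overlap in 20 of the 26 genes, 76.9% against 70.7% of all tested genes. The median log2 change of the 26 was -0.09, beside -0.02 for all tested genes. The highest rise was that of Mbtps1, the protease that makes the first cut in SREBP2, and the deepest fall that of Stard4, a carrier of cholesterol between membranes.

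**Figure D1:**
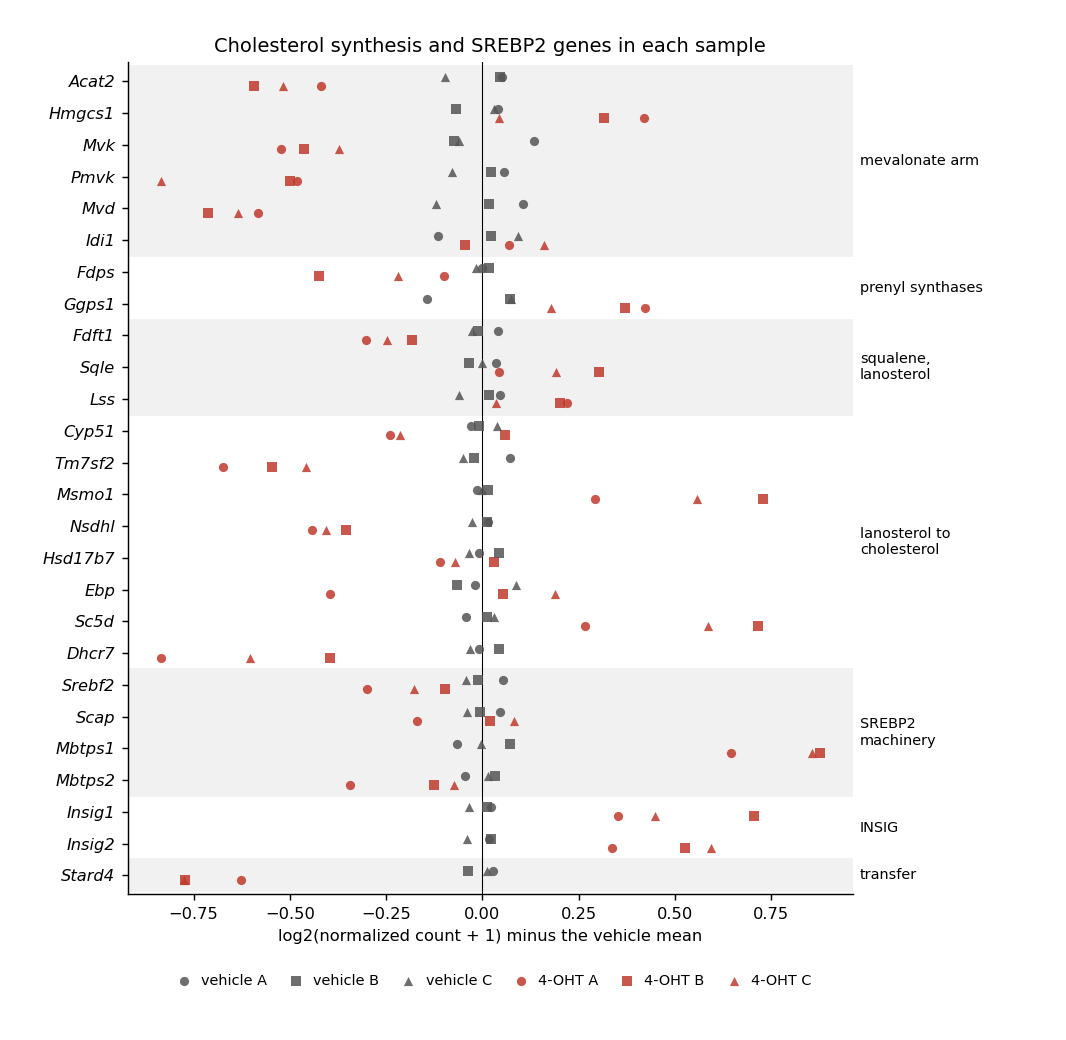
Each row is a gene of the set in pathway order, and each point a sample, plotted as log2(normalized count + 1) minus the mean of the 3 vehicle samples; grey marks vehicle, red 4-OHT, and the shape gives the replicate letter. The red points lie to both sides of the vehicle points, with Mbtps1, Msmo1, Sc5d, Insig1 and Insig2 to the right and Stard4, Dhcr7, Mvd, Pmvk, Tm7sf2 and Acat2 to the left. They are spread more widely than the grey points in 23 of 26 genes when spread is taken as the coefficient of variation. Over all tested genes its median was higher with 4-OHT too, at 7.56% against 5.65% in vehicle, so wider spread is not particular to the set.

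The values are gene counts divided by a size factor of each library, called normalized counts here, and libraries held 11629150 to 15943722 reads. How libraries are scaled matters for small changes. Dividing by library totals in place of the authors' size factors moved the median log2 change of all tested genes from -0.02 to -0.32, and with it every gene of the set. Under that scaling 5 of the 26 were higher, 16 lower and 5 not called, where 19.1% of all tested genes were higher and 55.4% lower. The 5 genes that were higher under both scalings were Mbtps1, Msmo1, Sc5d, Insig1 and Insig2, and Hmgcs1, Ggps1, Sqle and Lss were higher only under the size factors. Of the 21 calls, 14 held in all 16 alternative settings run, 5 of them higher and 9 lower. Nothing in the labels states that replicates came from different cultures, so each p-value speaks only of the sample-to-sample spread, which may be technical.

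Marker genes were read as a check of the labels. The 10 macrophage markers together gave 118066 to 121209 normalized counts per vehicle sample and 89053 to 111289 per 4-OHT sample, and of these Mertk stayed at or below 2.27 in every sample. Lyz2 made up much of these sums, with means of 67465 in vehicle and 42932 with 4-OHT. Single markers moved both ways. Adgre1, Csf1r, Lyz2 and Spi1 were lower, with log2 changes of -0.89, -0.71, -0.66 and -0.18. Itgam, Ptprc, Cd14, Fcgr1 and Cd68 were higher, at 2.21, 0.69, 0.48, 0.48 and 0.39. Markers of fibroblasts, lymphocytes, epithelium and hepatocytes summed to at most 7.93 normalized counts per sample in each list, while 3 endothelial markers, Pecam1, Cdh5 and Kdr, summed to 1.95 to 7.21 in vehicle and 62.3 to 86.3 with 4-OHT, and their part in the results was not tested. Dusp6, which ERK signalling induces, went from a mean of 139 to 2480 normalized counts.

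CCAAT, a short promoter element, was found in most of the genes searched. RefSeq (GRCm38.p6) gave start windows of 300 bases, from 250 before the annotated start to 50 from it on, for 22 of the 26 genes. Sqle, Stard4, Fdps and Fdft1 had no window, so no motif was searched in them. SREBP2 is known to act through sterol regulatory elements, usually with the factor NF-Y, which binds CCAAT, and with Sp1, which binds GC boxes. The genes were chosen as the pathway of SREBP2, so their shares of CCAAT and GC boxes are not independent of that choice. Of the 22 genes, 18 had CCAAT on either strand in at least 1 window, 81.8% against 43.5% of 8787 tested genes with a window and 37.4% of all 32851 windows. GGGCGG was found in 19 of the 22, 86.4% against 68.9% of tested genes and 35.7% of all windows. CACGTG was found in 5 of the 22, 22.7% against 12.2% and 7.15%, and TGACGTCA, the cyclic AMP response element, in 0 of the 22, against 3.91% and 1.79%. These are descriptions of letters in a window, not binding sites.

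CCAAT matches were present in 7 of 8 higher, 7 of 9 lower and 4 of 5 uncalled genes with a window, and the 4 genes without one were Acat2, Scap, Mbtps1 and Mbtps2. In Dhcr7 the matches lay only in the window that begins at base 143829964 of chromosome 7, while the gene begins at 143823145. Over the 18 genes there were 40 matches, whose first bases lay between positions -237 and 34 relative to the start, with a median at -57.5, and 57.5% lay in the last 100 bases before the start, against 43.6% of the 17707 matches in all windows. The sterol regulatory element was searched as TCACNCCAC on both strands, which was found in Hmgcs1 alone among the 22 genes (4.55%), at positions -137 to -129, and in 1.42% of tested genes and 1.24% of all windows. A longer form of the element, which contains a match to these letters, was also searched and was found in 0 of the 22 genes, beside 0.0455% of tested genes and 0.0913% of all windows. Other spellings of the element were not searched, so a window without a match may still hold one. Shown are the windows of Hmgcs1, with that match, of Msmo1 and Mvd, the sterol pathway enzymes with the largest rise and fall among those with a window, of the INSIG pair, and of Mbtps1, the most raised gene, all 5′ to 3′ on the strand of the gene. Msmo1, Mvd and Hmgcs1 were chosen for printing after their values were seen. Capitals mark CCAAT or its complement ATTGG and, in Hmgcs1, also the TCACCCCAC match. The Mbtps1 window holds neither. Of the 3 Insig2 windows the 1 nearest the start of the gene is printed, which is also the only 1 with CCAAT.
Hmgcs1, chr13:119690101-119690400, plus strand: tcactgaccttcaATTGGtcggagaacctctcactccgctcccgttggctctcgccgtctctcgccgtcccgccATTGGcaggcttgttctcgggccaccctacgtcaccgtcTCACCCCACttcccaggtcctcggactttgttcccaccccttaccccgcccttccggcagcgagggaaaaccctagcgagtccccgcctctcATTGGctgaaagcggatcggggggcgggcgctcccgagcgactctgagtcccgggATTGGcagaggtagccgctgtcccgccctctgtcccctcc
Msmo1, chr8:64733529-64733828, minus strand: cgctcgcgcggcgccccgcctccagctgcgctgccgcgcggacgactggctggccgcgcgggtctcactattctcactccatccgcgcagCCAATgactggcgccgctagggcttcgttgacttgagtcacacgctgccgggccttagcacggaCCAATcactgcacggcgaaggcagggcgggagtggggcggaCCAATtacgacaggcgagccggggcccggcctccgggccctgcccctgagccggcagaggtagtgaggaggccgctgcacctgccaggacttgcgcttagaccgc
Mvd, chr8:122443373-122443672, minus strand: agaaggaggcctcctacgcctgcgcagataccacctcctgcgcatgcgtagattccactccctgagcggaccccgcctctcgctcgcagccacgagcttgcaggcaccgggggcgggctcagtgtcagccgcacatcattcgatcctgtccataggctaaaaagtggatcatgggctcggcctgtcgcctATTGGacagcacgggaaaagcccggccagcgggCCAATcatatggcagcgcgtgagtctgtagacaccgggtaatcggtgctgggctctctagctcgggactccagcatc
Insig1, chr5:28071162-28071461, plus strand: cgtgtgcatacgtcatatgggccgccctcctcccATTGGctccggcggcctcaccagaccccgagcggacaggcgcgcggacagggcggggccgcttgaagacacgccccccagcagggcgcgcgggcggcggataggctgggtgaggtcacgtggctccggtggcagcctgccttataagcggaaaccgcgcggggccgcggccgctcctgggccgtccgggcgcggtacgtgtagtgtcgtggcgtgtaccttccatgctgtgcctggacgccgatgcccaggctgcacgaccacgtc
Insig2, chr1:121332540-121332839, minus strand: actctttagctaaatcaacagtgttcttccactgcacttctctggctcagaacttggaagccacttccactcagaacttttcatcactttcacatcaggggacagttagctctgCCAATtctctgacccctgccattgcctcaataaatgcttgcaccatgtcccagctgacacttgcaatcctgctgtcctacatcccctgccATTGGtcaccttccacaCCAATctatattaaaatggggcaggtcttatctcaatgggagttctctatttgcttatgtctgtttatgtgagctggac
Mbtps1, chr8:119558712-119559011, minus strand: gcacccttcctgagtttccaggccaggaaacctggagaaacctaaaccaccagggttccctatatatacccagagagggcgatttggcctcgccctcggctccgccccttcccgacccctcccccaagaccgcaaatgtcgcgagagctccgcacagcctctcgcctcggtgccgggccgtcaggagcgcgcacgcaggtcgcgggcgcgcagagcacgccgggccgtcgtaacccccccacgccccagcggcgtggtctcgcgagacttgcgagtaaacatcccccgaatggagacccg

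**Figure D2:**
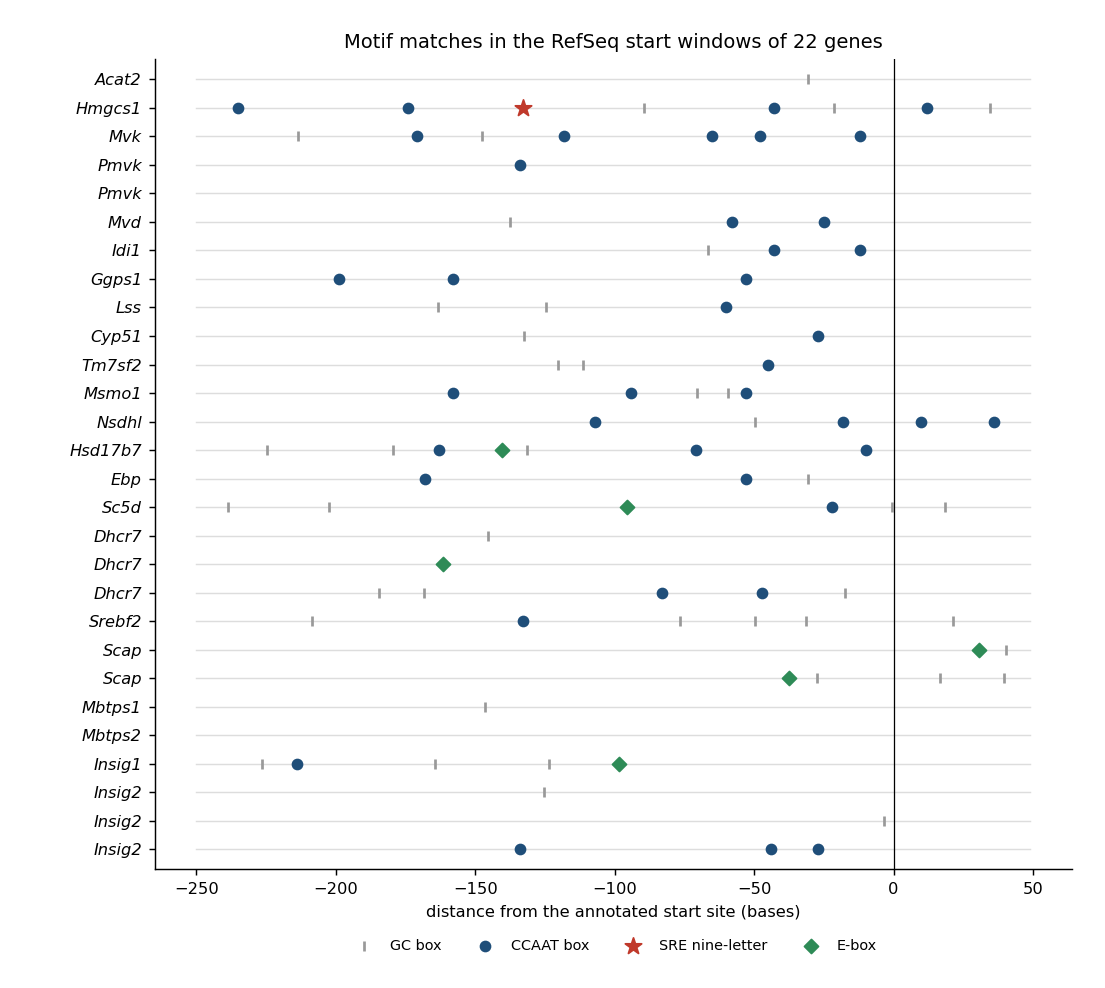
Each line is a RefSeq start window of a gene of the set, in pathway order, and the horizontal axis gives the distance in bases from the annotated start, with symbols at matches on either strand. CCAAT boxes (blue circles) occur in 18 of 22 genes, whereas the only sterol regulatory element match (red star) lies in Hmgcs1; genes with several annotated starts have several lines.

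Of the 6 genes from acetyl-CoA to the isopentenyl unit 4 were lower, 1 was higher and 1 did not pass, with a median log2 change of -0.48, where 32.5% of all tested genes were lower and 33.0% higher. Acat2, the cytosolic thiolase that joins 2 acetyl-CoA molecules (ENSMUSG00000023832.13, chromosome 17, 12942890 to 12960747, GRCm38/mm10), was at 824, 821 and 744 normalized counts in the vehicle samples (A, B, C) and at 595, 526 and 555 in the 4-OHT samples (A, B, C). Every 4-OHT sample lay under every vehicle sample, and the mean fell to 0.702 times vehicle (log2 change -0.51 ± 0.07 SE, adjusted p = 4.13e-05).

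Hmgcs1, the synthase that makes HMG-CoA, went the other way, though not evenly. It had 4421, 4100.3 and 4393 normalized counts in vehicle (A, B, C) and 5755, 5351 and 4431 with 4-OHT (A, B, C). Replicates A and B of the treated group were clearly above vehicle and replicate C was level with the highest vehicle sample. The log2 change was 0.26 ± 0.08 (SE, adjusted p = 0.0175), and the call ended without vehicle replicate B (0.22, adjusted p = 0.0744) or without 4-OHT replicate B (0.23, adjusted p = 0.0725). Under total-count scaling the value was -0.047.

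The next 3 enzymes, which phosphorylate and decarboxylate mevalonate, fell together. Mevalonate kinase, Mvk, changed by -0.45 ± 0.08 (SE, adjusted p = 0.000572), from 322 to 372 normalized counts in the vehicle samples to 236 to 262 with 4-OHT. Phosphomevalonate kinase, Pmvk, had 684, 669 and 623 normalized counts in vehicle (A, B, C) and 471, 465 and 368 with 4-OHT (A, B, C). Its 4-OHT replicate C was the lowest sample, and the log2 change was -0.60 ± 0.09 (SE, adjusted p = 0.000131). Mvd, the decarboxylase that yields isopentenyl diphosphate (ENSMUSG00000006517.5, chromosome 8, 122433601 to 122443422), had 1221, 1147 and 1043 in vehicle (A, B, C) and 757, 691 and 729.9 with 4-OHT (A, B, C). Its groups were far apart, at 0.638 times vehicle (log2 change -0.64 ± 0.07 SE, adjusted p = 6.18e-06), the largest fall among the enzymes. Idi1, the isomerase that ends this arm, lay at 91.6 to 106 normalized counts in vehicle and 96.1 to 111 with 4-OHT, and its log2 change of 0.06 had an interval of -0.20 to 0.32 (95%).

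The prenyl diphosphate synthases, which stand where the isoprenoid and sterol branches part, moved apart. Fdps, which makes farnesyl diphosphate, was lower, at 519 to 532 normalized counts in vehicle and 391 to 490.5 with 4-OHT (log2 change -0.25 ± 0.08 SE, adjusted p = 0.0183). Ggps1, which draws farnesyl diphosphate on to geranylgeranyl diphosphate for protein prenylation, was higher, at 229 to 267 in vehicle and 287 to 340 with 4-OHT (log2 change 0.32 ± 0.09 SE, adjusted p = 0.00947). In both genes the groups did not overlap. The Fdps call was lost without vehicle A (adjusted p = 0.0508), vehicle B (0.0584) or 4-OHT B (0.0711), and the authors' deposited table gives Fdps an adjusted p of 0.0536. That of Ggps1 was lost under total-count scaling, at 0.02 (adjusted p = 0.872).

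Of the enzymes between farnesyl diphosphate and lanosterol, Fdft1 fell while Sqle and Lss were slightly higher. Fdft1, squalene synthase, went from 1153 to 1207 normalized counts in vehicle to 953 to 1034 with 4-OHT (log2 change -0.24 ± 0.05 SE, adjusted p = 0.00156). In the annotation, 18.3% of its exon bases overlap exons of Ctsb on the opposite strand, and Ctsb was at 52401 to 57608 normalized counts in vehicle and 92723 to 131973 with 4-OHT. How strand was handled in counting is not stated, so reads of the pair may not be fully separated. Sqle, squalene epoxidase, an oxygen-dependent and often rate-limiting step, was at 3604 to 3786 in vehicle and 3805 to 4553 with 4-OHT (log2 change 0.18 ± 0.06 SE, adjusted p = 0.0289). Lss, which closes the rings to lanosterol, overlapped between groups at 2415 to 2599 and 2581 to 2936 (log2 change 0.15 ± 0.06 SE, adjusted p = 0.0406). Both small rises were lost in several leave-one-out fits. For Sqle these were without vehicle A (adjusted p = 0.0515), vehicle B (0.103), vehicle C (0.0716), 4-OHT B (0.125) and 4-OHT C (0.0660), and for Lss without vehicle A (0.0561), vehicle B (0.0840), vehicle C (0.144), 4-OHT A (0.0720) and 4-OHT B (0.131). Under total-count scaling both had values under 0, -0.13 and -0.15.

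Of the 8 genes from lanosterol to cholesterol 2 were higher, 3 lower and 3 not called, which is near the 33.0% higher and 32.5% lower of all tested genes. Msmo1 and Sc5d, both iron-dependent sterol oxidases, rose by nearly the same amount. Msmo1, which starts removal of the methyl groups at carbon 4 of the ring (ENSMUSG00000031604.10, chromosome 8, 64718139 to 64733792), had 4304, 4390.1 and 4342 normalized counts in vehicle (A, B, C) and 5321, 7196 and 6397 with 4-OHT (A, B, C). The vehicle samples were within 1.00% (coefficient of variation), the treated ones spread by 14.9% and all lay above vehicle, for a 1.45-fold rise (log2 change 0.53 ± 0.09 SE, adjusted p = 0.000294). Sc5d, the sterol C5-desaturase (ENSMUSG00000032018.14, chromosome 9, 42251595 to 42264256), had 1358, 1413 and 1431 in vehicle (A, B, C) and 1685, 2300.3 and 2104 with 4-OHT (A, B, C). It too rose 1.45-fold, lowest in replicate A of the treated group (log2 change 0.52 ± 0.09 SE, adjusted p = 0.000413).

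Tm7sf2, Nsdhl and Dhcr7 fell. Dhcr7, which reduces 7-dehydrocholesterol to cholesterol (ENSMUSG00000058454.15, chromosome 7, 143823145 to 143848410), had 787, 817 and 775 normalized counts in vehicle (A, B, C) and 444, 602 and 521 with 4-OHT (A, B, C). It was at 0.659 times vehicle, with replicate A of the treated group the lowest sample (log2 change -0.61 ± 0.09 SE, adjusted p = 0.000135). Tm7sf2, a sterol C14-reductase, had 213, 199.8 and 196 normalized counts in vehicle (A, B, C) and 127, 139 and 147 with 4-OHT (A, B, C). All treated samples were lower (log2 change -0.56 ± 0.10 SE, adjusted p = 0.000345); 12.1% of its exon bases overlap Vps51 on the same strand, which had 347 to 440.5 normalized counts in vehicle and 308 to 341 with 4-OHT. Nsdhl, a dehydrogenase of the demethylation complex in which Msmo1 also works, fell from 1365 to 1407 to 1024 to 1088 normalized counts (log2 change -0.40 ± 0.05 SE, adjusted p = 2.42e-05).

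The other 3 genes of this stretch overlapped between groups. Cyp51, the lanosterol C14-demethylase, had a log2 change of -0.13 with a 95% interval of -0.29 to 0.03, but without 4-OHT replicate B it was lower (-0.23, adjusted p = 0.00466). Hsd17b7, the ketoreductase of the demethylation complex, had -0.05 (interval -0.17 to 0.07). Ebp, the sterol isomerase, known as a protein that binds tamoxifen-type drugs, had -0.05 (interval -0.32 to 0.22). The treated samples held 368, 504 and 553 normalized counts (A, B, C) around vehicle samples of 463 to 515, so replicate A alone fell under vehicle and replicate C alone lay above it. Cyp51, Hsd17b7 and Ebp were all lower under total-count scaling, at -0.44, -0.36 and -0.36.

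**Figure D3:**
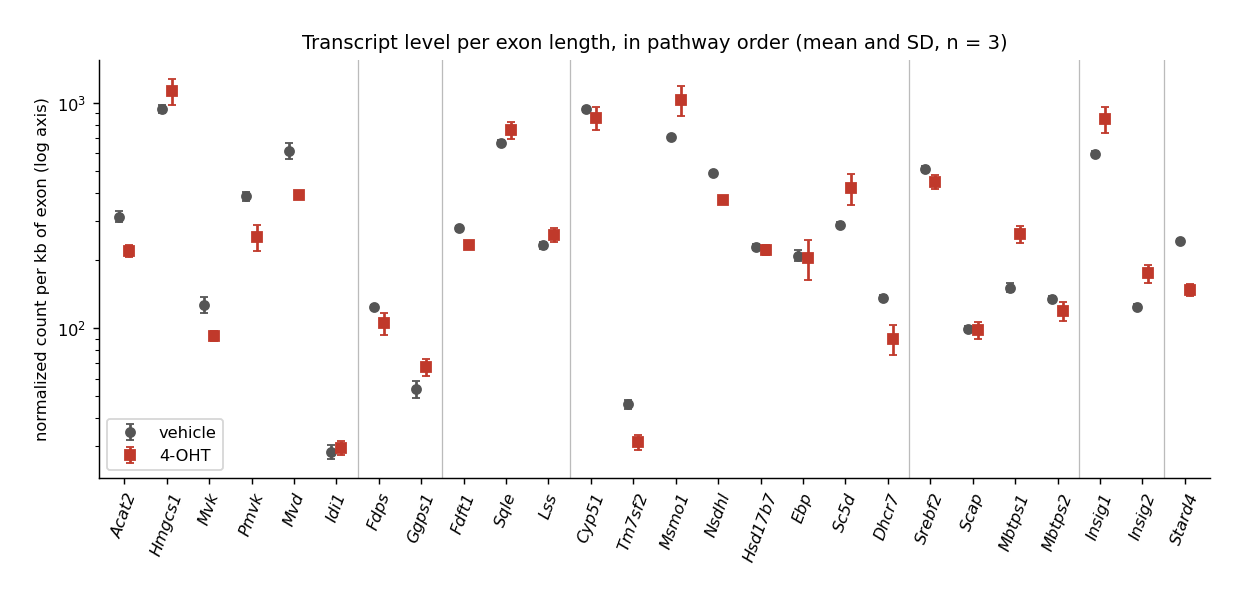
Normalized count per kilobase of exon, on a log axis, for the 26 genes in pathway order; points are means and bars SD of 3 samples, grey circles for vehicle and red squares for 4-OHT, with vertical lines between functional groups. Hmgcs1, Cyp51 and Msmo1 are the most abundant transcripts and Idi1 and Tm7sf2 among the least, in both groups.

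Levels per exon length differed widely within the pathway, more than any gene moved between groups. Per kilobase of exon, in vehicle, Hmgcs1 and Cyp51 were the most abundant at 937 ± 38.7 and 933 ± 22.7 normalized counts (SD, n = 3), which do not differ beyond their spread, followed by Msmo1 at 707 ± 7.05 and Sqle at 666 ± 16.4. The least abundant were Idi1 at 28.4 ± 2.08, Tm7sf2 at 46.1 ± 2.08 and Ggps1 at 53.8 ± 4.57. The highest was 33.0 times the lowest. With 4-OHT the order at the top became Hmgcs1 at 1127 ± 148, Msmo1 at 1026 ± 153, Cyp51 at 855 ± 101 and Insig1 at 848 ± 110 per kilobase, and the ranges of mean ± SD of neighbours in this order overlap. Exon lengths are unions over all GENCODE M21 transcripts, and 4 of the 26 genes have other end points there than in the table, so levels per length are approximate.

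Among the regulators Mbtps1 and both INSIG genes were higher, Srebf2 and Mbtps2 slightly lower, and Scap did not pass the test. Srebf2, which encodes SREBP2 (ENSMUSG00000022463.7, chromosome 15, 82147266 to 82205376), had 3788, 3626 and 3547 normalized counts in vehicle (A, B, C) and 2967, 3411 and 3230.2 with 4-OHT (A, B, C). The treated samples were all lower by a small amount, 0.877 times vehicle (log2 change -0.19 ± 0.06 SE, adjusted p = 0.0131), and the call ended without vehicle A (adjusted p = 0.0626). Scap had 765, 737 and 721 in vehicle (A, B, C) and 658, 750.4 and 784 with 4-OHT (A, B, C), overlapping groups with a log2 change of -0.02 and an interval of -0.18 to 0.13.

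The pair of Golgi proteases that cut SREBP2 in turn went in different directions. Mbtps1, the site-1 protease, which also processes ATF6 (ENSMUSG00000031835.16, chromosome 8, 119508156 to 119558735), had 1523, 1675 and 1592 normalized counts in vehicle (A, B, C) and 2495, 2929 and 2887 with 4-OHT (A, B, C). The groups were well apart, at 1.74-fold (log2 change 0.79 ± 0.07 SE, adjusted p = 1.19e-06), and the change stayed between 0.49 and 0.87 in all settings run. Mbtps2, the site-2 protease, was at 1320.5 to 1394 in vehicle and 1075 to 1297 with 4-OHT. Its log2 change of -0.18 ± 0.07 (SE, adjusted p = 0.0374) was called in 7 of 16 alternative settings and was not called in the authors' deposited table (adjusted p = 0.0842). It was lost without vehicle A (adjusted p = 0.0556), vehicle B (0.116), vehicle C (0.0968) or 4-OHT A (0.0927).

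Both INSIG genes, whose proteins hold SCAP and SREBP2 back, were higher. Insig1, itself a classical SREBP target (ENSMUSG00000045294.11, chromosome 5, 28071363 to 28078662), had 1871, 1857 and 1796 normalized counts in vehicle (A, B, C) and 2350.4, 3005 and 2512 with 4-OHT (A, B, C). It rose 1.42-fold, with replicate B of the treated group the highest sample (log2 change 0.50 ± 0.08 SE, adjusted p = 0.000155). Insig2, which is known to be less dependent on SREBP (ENSMUSG00000003721.14, chromosome 1, 121304353 to 121332589), had 439.5, 441 and 422 in vehicle (A, B, C) and 548, 626 and 655 with 4-OHT (A, B, C). It rose 1.40-fold (log2 change 0.49 ± 0.07 SE, adjusted p = 0.000129). Per kilobase of exon, Insig1 was 4.76 times Insig2 in vehicle and 4.83 times with 4-OHT, so the pair kept its proportion. Both were also higher under total-count scaling, at 0.20 and 0.18 (adjusted p = 0.0204 and 0.0408).

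Stard4 fell further than any other gene of the set. This small soluble protein, also a known SREBP2 target, moves cholesterol between the plasma membrane and the endoplasmic reticulum. It had 1391, 1328 and 1375 normalized counts in vehicle (A, B, C) and 884, 798 and 797 with 4-OHT (A, B, C) (ENSMUSG00000024378.9, chromosome 18, 33199355 to 33213862). The groups were well separated at 0.606 times vehicle (log2 change -0.72 ± 0.06 SE, adjusted p = 6.27e-07), the reverse of the direction of Insig1.

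**Figure D4:**
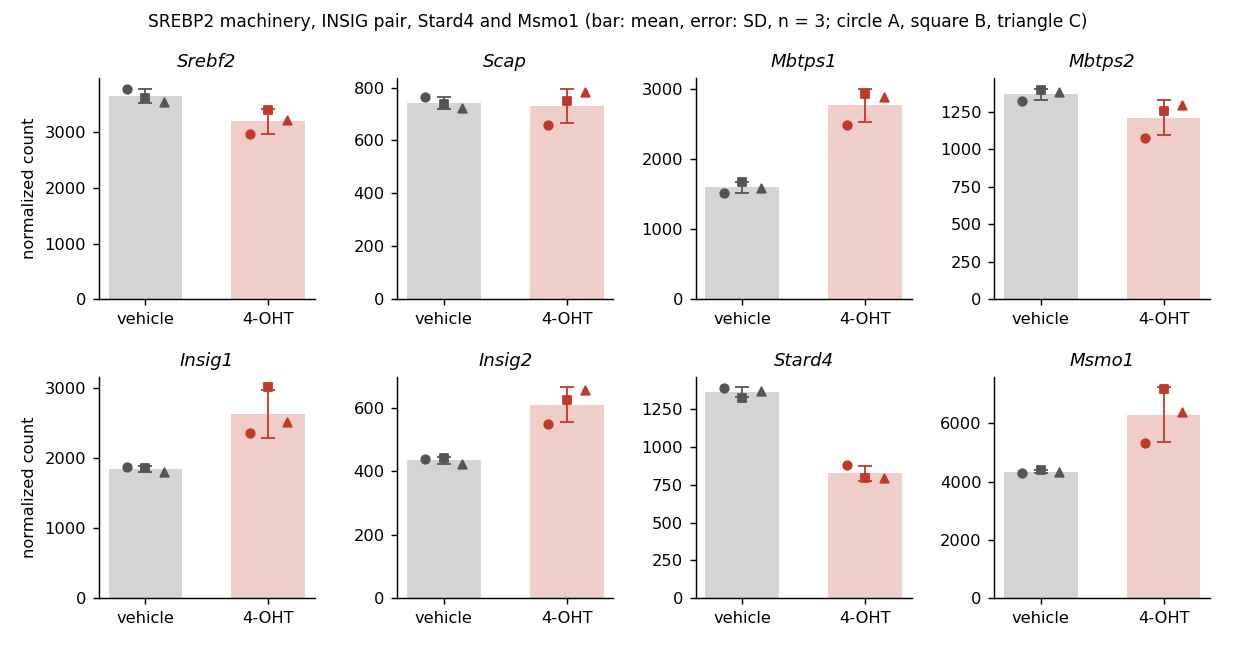
Normalized counts in each sample for the SREBP2 machinery, the INSIG pair, Stard4 and Msmo1; bars are means, error bars SD of 3 samples, and shapes give the replicate letter. Mbtps1, Insig1, Insig2 and Msmo1 lie higher with 4-OHT in all 3 samples, Stard4 and Srebf2 lower in all 3, and Scap overlaps.

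The treated samples differed among themselves more than the vehicle samples did. The median coefficient of variation over the 26 genes was 2.93% in vehicle and 8.84% with 4-OHT, beside 5.65% and 7.56% over all tested genes. In the treated group replicate A was the lowest of the 3 in 17 genes, among them Sqle, Cyp51, Msmo1, Sc5d, Dhcr7 and Insig1, and the highest in 8, among them Acat2, Hmgcs1, Pmvk, Mvd, Fdps and Stard4. Replicate B was the highest in 11 genes. Together the 26 genes took 0.345% to 0.360% of the reads of vehicle libraries and 0.294% to 0.323% of those of 4-OHT libraries. Under the authors' size factors their summed normalized counts lay the other way, at 40809, 40320.4 and 40103 in vehicle (A, B, C) and 40963, 46664 and 42578 with 4-OHT (A, B, C), with replicate A of the treated group close to vehicle.

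**Figure D5:**
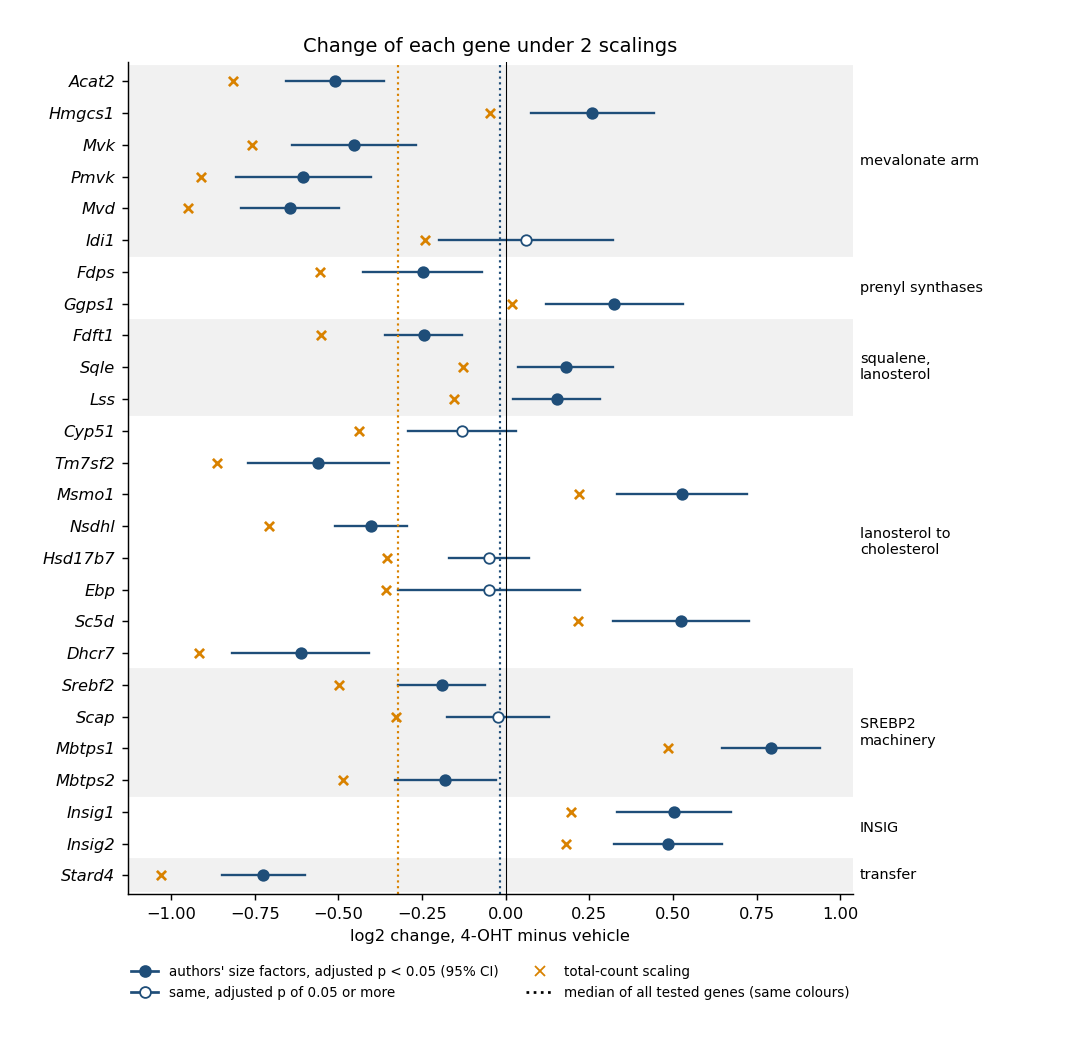
Log2 change of 4-OHT over vehicle for each gene under the authors' size factors (blue, with 95% interval, open where not called) and under total-count scaling (orange crosses); dotted lines mark the median of all tested genes under each. Each cross lies to the left of its point, by about the distance between the dotted lines (-0.02 and -0.32), and Hmgcs1, Sqle, Lss and Idi1 cross 0.

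The counts of the further lists stand beside 33.0% higher and 32.5% lower among all tested genes, and 19.1% and 55.4% under total-count scaling. Around the 26, further genes of sterol synthesis and acetyl-CoA supply were mostly lower, with 6 lower, 2 higher and 2 not called of 10 tested, and a median log2 change of -0.34 (8 lower and 2 higher under total-count scaling). Por, the reductase that feeds electrons to Cyp51 and Sqle, was an exception, rising 2.34-fold from 3445 ± 78.2 to 8046 ± 1056 normalized counts (SD, n = 3; log2 change 1.21 ± 0.08 SE, adjusted p = 2.15e-07). Acat1, the mitochondrial thiolase, fell from 1035 ± 19.8 to 449 ± 11.3 (log2 change -1.20), Acss2, which makes acetyl-CoA from acetate, fell by 0.83 and Cyb5b, a cytochrome b5, by 0.59 on the log2 scale. Lbr, which shares the C14-reductase step with Tm7sf2, was lower too, at 1668 ± 87.9 normalized counts in vehicle and 1220.4 ± 68.3 with 4-OHT (SD, n = 3; log2 change -0.45). It was picked with its value known. Of the named genes for the steps after lanosterol, Msmo1 and Sc5d were higher and Tm7sf2, Lbr, Nsdhl and Dhcr7 lower.

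Of 14 genes of the isoprenoid branches 3 were higher, 5 lower and 6 not called, near the shares of all tested genes (33.0% and 32.5%), with a median of -0.05 (1 higher and 10 lower under total-count scaling, beside 19.1% and 55.4%). Icmt, which methylates prenylated proteins, rose 1.68-fold and Nus1, a subunit of the enzyme that begins dolichol synthesis, 1.26-fold, while Coq2 and Pdss1, which build coenzyme Q, fell by 0.85 and 0.61 on the log2 scale. Of 13 genes for sterol-regulated degradation at the endoplasmic reticulum, 8 were higher, 1 lower and 4 not called, with a median of 0.22, where 33.0% of all tested genes were higher. With library totals as the scale, 3 of the 13 were called higher, near the 19.1% of all tested genes, and 5 were called lower, where 55.4% were. The ubiquitin ligases Syvn1 and Rnf139, of which Rnf139 is known to act with INSIG proteins, rose 1.74-fold and 1.48-fold (largest adjusted p = 0.000144), and Ufd1l, a cofactor that helps to extract their substrates, rose 1.27-fold.

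Of 17 tested genes for oxysterol production, cholesterol esterification and sterol transfer, 8 were higher, 3 lower and 6 not called, with a median of 0.20, where 33.0% of all tested genes were higher (6 higher and 7 lower under total-count scaling). Soat1, which esterifies cholesterol for storage, rose from 7953 ± 66.4 to 14445 ± 1741 normalized counts (log2 change 0.85 ± 0.08 SE, adjusted p = 3.06e-06). The sterol transporters Gramd1b and Npc1 rose 2.56-fold and 2.34-fold, and Gramd1c rose from 9.06 ± 4.66 to 126 ± 24.3 normalized counts. The 3 lower genes, named with their values known, were Cyp27a1, a sterol hydroxylase (log2 change -0.71), Stard5, a sterol carrier (-0.70), and Lipa, the lysosomal acid lipase that frees cholesterol from its esters (-0.58). The SREBP1 side, which governs fatty acid synthesis, went down more uniformly, with 9 lower and 1 higher of 10 tested and a median of -0.64 (9 lower and 0 higher under total-count scaling). Srebf1 fell to 0.719 times vehicle (log2 change -0.47 ± 0.06 SE, adjusted p = 4.27e-05), Acaca, acetyl-CoA carboxylase, to 0.508 times, Scd1 and Scd2, the stearoyl-CoA desaturases, to 0.341 and 0.428 times, and Fads2 to 0.590 times. These lists were chosen with earlier results of these data known, and whether they differ from the 26 genes was not tested.

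In the authors' deposited table, which gives its own fold changes, 8 of the 26 genes were higher, 10 lower and 8 not called at an adjusted p under 0.05. There 7026 of the 16499 genes with an adjusted p passed (42.6%). That is a wider set than the 11828 tested genes, which hold all 26, so the 42.6% is not a like background. Among the 11828, DESeq2 on recovered reads called 6967. The call was the same as here for 23 genes, the others being Fdps, Lss and Mbtps2, whose changes were small. The largest fold changes there were also those of Mbtps1, with a log2 fold change of 0.80 ± 0.08 (SE), and Stard4, at -0.72 ± 0.08.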

How the data were processed

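Libraries from 6 samples, 3 per group, were made with a KAPA mRNA kit and read single-end, per the labels' protocols. Tools listed in the submitters' processing notes are STAR 2.5.1b and RSEM, Trimmomatic 0.35, DESeq2 1.18.1 and bcl2fastq 2.20. Builds listed there are mm10 and GRCm38. Their roles, the annotation and strand handling are not given in the sources used here. The deposited signal behaves as whole counts scaled by 1 factor per library, since in every column 100% of positive values are whole multiples of the smallest one within 1e-06. Reads recovered so were used for filtering and alternatives (vehicle B has a step near 1, 0.989, and fits without it were among the alternatives). The log2 fold changes, their standard errors (a score here) and the p-values in the table are the authors' own, per the file headers.

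limma 3.58.1 (R 4.3.3) was fitted with a mean-variance trend to log2(value + 1), group as the only term, for 11828 genes kept by edgeR 4.0.16 filterByExpr (minimum count 10); fold changes on this scale slightly understate those of low genes. Benjamini-Hochberg adjustment ran over all 11828 genes. Fold values are ratios of group means. Alternatives were other pseudocounts, filters and scalings, edgeR, DESeq2 1.42.0, a replicate term and leaving out each library. The 26 genes and the lists were chosen with earlier results of these data known. All 26 are accounted for; sample values are given for called genes with a log2 change of 0.5 or more in size and for Srebf2, Scap, Insig1, Insig2, Stard4 and Hmgcs1 (the last added after its values were seen), and from each further list up to 4 genes with the smallest p, apart from some that are not reported here. Of the table's lines 1 held no values and was not used. The symbol Erg28 matched no row, and March6 and Ufd1l were listed under their newer symbols too.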

Additional observations from a re-analysis of the deposited data

How the results depend on the processing

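Of 16 alternatives, total-count scaling changed most, moving the median of all genes from -0.02 to -0.32. Under it 5 of the 26 genes were higher rather than 9, and the further lists had 12 genes higher and 39 lower rather than 22 and 24. Hmgcs1, Idi1, Lss and Sqle changed sign (-0.047, -0.24, -0.15 and -0.13), Ggps1 lost its call (0.018), and Cyp51, Ebp, Hsd17b7 and Scap became lower (-0.44, -0.36, -0.36 and -0.33). Without the filter Lss (0.15) and Mbtps2 (-0.18) were not called, and Mbtps2 was not called under TMM scaling (-0.17), edgeR (-0.16) or DESeq2 (-0.16). In edgeR without vehicle B, 6 calls were lost, Fdps (-0.22), Hmgcs1 (0.24), Lss (0.17), Mbtps2 (-0.15), Sqle (0.18) and Srebf2 (-0.18). Leaving out each library in turn gave ranges of -0.23 to -0.078 for Cyp51, -0.17 to 0.12 for Ebp, -0.32 to -0.16 for Fdps, 0.18 to 0.37 for Hmgcs1, 0.12 to 0.21 for Lss, -0.23 to -0.10 for Mbtps2, -0.076 to 0.051 for Scap, 0.12 to 0.25 for Sqle and -0.24 to -0.14 for Srebf2. Ebp changed sign without 4-OHT replicate A and Scap without vehicle A or 4-OHT A. The cause of these shifts was not tested.

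The fit with a replicate block called 7972 genes rather than 7750 and changed no call of the 26. Deviations of same-lettered samples correlated at 0.11, 0.04 and 0.12 for A, B and C. Every sample correlated best with its own letter, a hint from the data and not from the design, and the samples were not treated as paired. Depth limits Idi1 most, with 343 vehicle and 278 4-OHT reads in all.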
